A study of Mus musculus with 12 samples.

Results

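Ribosome biogenesis and nucleolar genes are described here in mouse blood cells with and without Stat5a and Stat5b. The 49 members are a list of genes whose proteins transcribe ribosomal DNA, modify and cut the transcript, or assemble the ribosomal subunits. They were looked up by symbol in the annotation of the array, among probe sets with 1 symbol, and the probe set kept for a gene was that of highest mean log2(signal + 32) over the 12 arrays. Of the 49 members, 48 were found this way, out of 18194 genes with such a probe set. The probe set of the other one, Mrto4, carries several symbols and was not used. All 48 passed the filter on low values, a mean log2 value of at least 6.76, which is the median of all probe sets, and were tested among 10583 genes.

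RNA was measured on 12 one-colour Affymetrix arrays in 4 groups of 3: Stat5 knockout plus, Stat5 knockout minus, control plus and control minus. The labels give the knockouts as mice lacking Stat5a and Stat5b, and the plus or minus sign stands in the array titles. The treatment protocols name CMP as what the plus arrays received, but the titles of some minus arrays carry CMP as well, so the letters may name an agent or the cells, and plus and minus mean only that sign. What removed the 2 genes, the strain, the age, the blood cell type and whether the arrays of a group came from separate animals are not given in the sources used here. All p-values then rest on the spread among these arrays alone, which may be technical. The titles have 3 forms, called sets A, B and C, with 1 array of each group in each set, and values below are given in that order. The treatment protocol of the knockout minus array of set B calls it a control. In the same set, the source label of the knockout plus array starts with a number unlike the rest. The array called a control was grouped by its title, and its signals of Stat5a, 50.1, and Stat5b, 32.3, lay within the range of the other knockout arrays.

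The genotype label was borne out on every array. Stat5a signals ran from 28.9 to 90.1 in the 6 knockout arrays, against 660 to 1436 in the 6 control arrays. Stat5b signals ran from 7.28 to 82.8 in the knockout arrays, against 1036 to 2177 in the control arrays. The labelled blood cells were checked against marker lists: 10 of 10 neutrophil granule genes, 7 of 7 stem and progenitor genes, 6 of 7 megakaryocyte genes, 6 of 7 monocyte genes, 5 of 6 mast cell and basophil genes and 5 of 10 erythroid genes were above the level filter. So were 1 of 7 T cell, 2 of 7 B cell and 0 of 5 NK cell genes, and, of cells other than blood, 3 of 5 endothelial and 2 of 6 stromal genes.

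Ribosomes are built mostly in the nucleolus, where RNA polymerase I copies the ribosomal RNA genes into a long precursor. Small nucleolar ribonucleoproteins (snoRNPs) guide methylation (box C/D) and pseudouridylation (box H/ACA) of that precursor, and assembly factors cut and fold it with ribosomal proteins into the small and the large subunit. Growing blood progenitors make many ribosomes, and MYC is a known activator of many genes of this pathway. By role the 49 members comprised 3 subunits of RNA polymerase I, 3 box C/D and 4 box H/ACA core proteins, 2 other snoRNP factors, 15 small subunit factors, 17 large subunit factors (16 measured) and 5 nucleolar proteins with several roles.

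Plus arrays were compared with minus arrays within each genotype. In the knockouts 28 of the 48 members were lower in plus than in minus arrays and 0 were higher, at an adjusted p under 0.05. Of all genes tested 9.72% were called lower and 9.03% higher, 18.8% in all. In the controls 28 of 48 were lower and 0 were higher, where 11.6% of all genes were called lower and 10.6% higher, 22.1% in all. At an unadjusted p under 0.05, 35 members were lower in knockouts and 34 in controls, with 0 higher, where 33.9% and 36.4% of all genes passed in either direction. The median log2 change of the members, plus over minus, was -0.69 in knockouts and -0.79 in controls, while the median of all genes tested was -0.06 in knockouts and -0.02 in controls. Called members with a change of over 2-fold numbered 12 in knockouts and 16 in controls, where 5.05% and 5.54% of all genes did so. The estimate was below 0 for 46 members in knockouts and for 47 in controls. Among the members, the share called was higher for RNA polymerase I subunits, snoRNP proteins and large subunit factors than for small subunit factors. These role groups are small, and the order was not kept in the lists of further factors below. There, RNA polymerase I genes and large subunit factors had a lower share called than small subunit factors. Since the arrays hold bulk RNA, fewer cells of a type and less RNA of these genes per cell cannot be told apart.

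**Figure D1:**
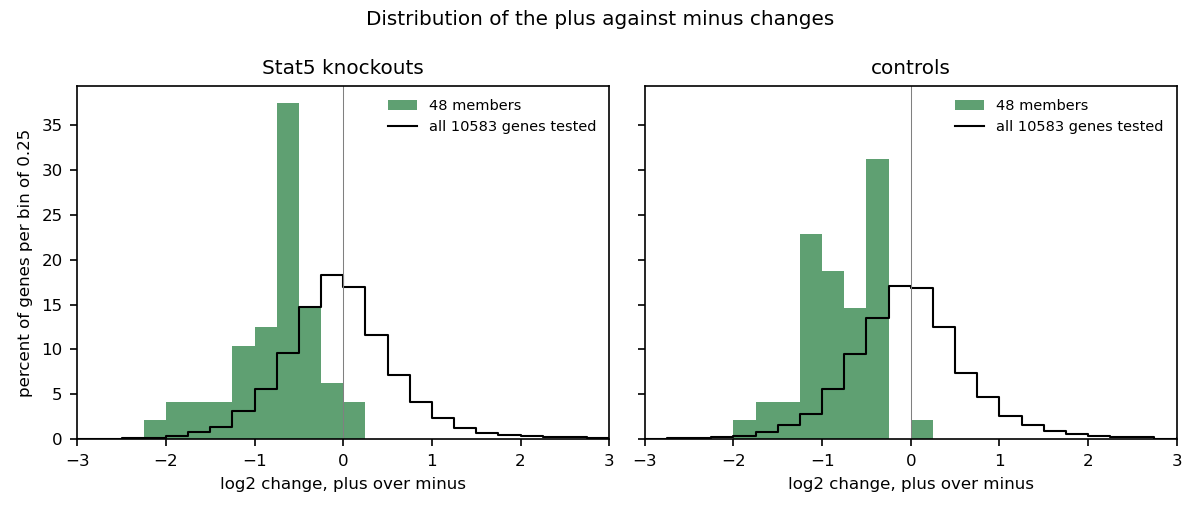
Log2 change of plus over minus arrays (x axis) against the percent of genes per bin of 0.25 (y axis), for the 48 members (filled bars) and all 10583 genes tested (line), in Stat5 knockouts (left) and controls (right); the x axis ends at 3 in each direction and leaves out the few genes beyond it. The member bars sit left of the line, with medians of -0.69 in knockouts and -0.79 in controls.

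The fall was seen within each of the 3 sets. In knockouts the median change of the members was -0.70 within set A, -0.79 within B and -0.66 within C, and 44, 41 and 47 of the 48 members were lower in plus than in minus. In controls the medians were -0.71, -0.97 and -0.63, with 47, 46 and 46 members lower. In all 3 sets 39 members were lower in knockouts and 43 in controls, where 29.1% and 30.6% of all genes were. The 3 plus arrays lay below the 3 minus arrays, with no overlap, for 16 members in knockouts and 23 in controls, where 11.4% and 12.5% of all genes did so. By call, 23 members were lower in both genotypes, 5 in knockouts alone, 5 in controls alone and 15 in neither. Of all genes tested, 13.3% were called lower or higher in both, 5.43% in knockouts alone, 8.83% in controls alone and 72.4% in neither. The 2 comparisons share the fit and the sets, and a call in 1 genotype alone does not show a difference between genotypes, which was tested separately.

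These counts depended on how the sets, and an array of set B with conflicting labels, were treated. Without the set in the fit, 4 members were called lower in knockouts, where 1.02% of all genes were, and 7 in controls, where 1.8% were. Leaving out all of set C gave 6 calls in knockouts, against 1.37% of all genes, and 10 in controls, against 2.26%. The knockout minus array of set B had Stat5a and Stat5b signals in the knockout range. With it counted as a control all the same, 14 were called in knockouts, where 4.48% of all genes were called lower. Without that array 15 were, where 4.4% of all genes were.

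A measure of RNA quality moved with the sign and with the set. The log2 ratio of 3′ to 5′ beta-actin signal, which grows as RNA is degraded, was 1.97, 5.78 and 0.50 in the knockout plus arrays, against 0.34, 4.73 and 0.25 in the knockout minus arrays. It was 2.14, 5.06 and 0.89 in the control plus arrays, against 0.79, 4.30 and 0.30 in the control minus arrays. This ratio was higher in the plus array of every pair and far higher in set B. The same ratio of Gapdh was 3.89, 6.09 and 1.70 in the knockout plus arrays, against 1.58, 4.72 and 1.10 in the knockout minus arrays, and 4.56, 4.82 and 2.07 in the control plus arrays, against 2.39, 4.83 and 1.28 in the control minus arrays. For Gapdh the control plus array of set B was thus not higher than its minus array. With the ratio of beta-actin added to the fit, 10 members were called lower in knockouts, where 2.89% of all genes were, and 20 in controls, where 7.58% were, and the median change was -0.87 in knockouts and -0.88 in controls.

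Some markers of other cells also moved. Of all genes tested, 9.72% were called lower in knockouts and 11.6% in controls, and 9.03% and 10.6% were called higher. Of 10 erythroid markers, 5 were tested, and 4 of them were lower in plus arrays in each genotype. The sums below take every listed marker found on the array, tested or not, here 8 erythroid genes. The summed signal of these 8 ran from 758 to 2107 in knockout plus arrays, against 5852 to 21850 in knockout minus arrays. In controls it ran from 1570 to 4597 in plus arrays, against 7043 to 39806 in minus arrays. Of 6 mast cell and basophil markers, 5 were tested, and 2 of them were lower in knockouts and 1 in controls. All 6 together summed to 1540 to 9994 in knockout plus arrays, against 10927 to 14860 in knockout minus arrays. In controls they summed to 5826 to 8168 in plus arrays, against 12655 to 15197 in minus arrays. Of the tested markers of other lineages, 2 of 10 neutrophil granule genes were lower in each genotype, Prtn3 and Camp in knockouts and Prtn3 and Ctsg in controls. In each genotype 1 of 6 megakaryocyte genes and 1 of 7 progenitor genes were lower, and 1 of 6 monocyte genes was higher. The summed signals of these lists overlapped between plus and minus arrays. The part of cell composition in the members' fall was not tested.

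**Figure D2:**
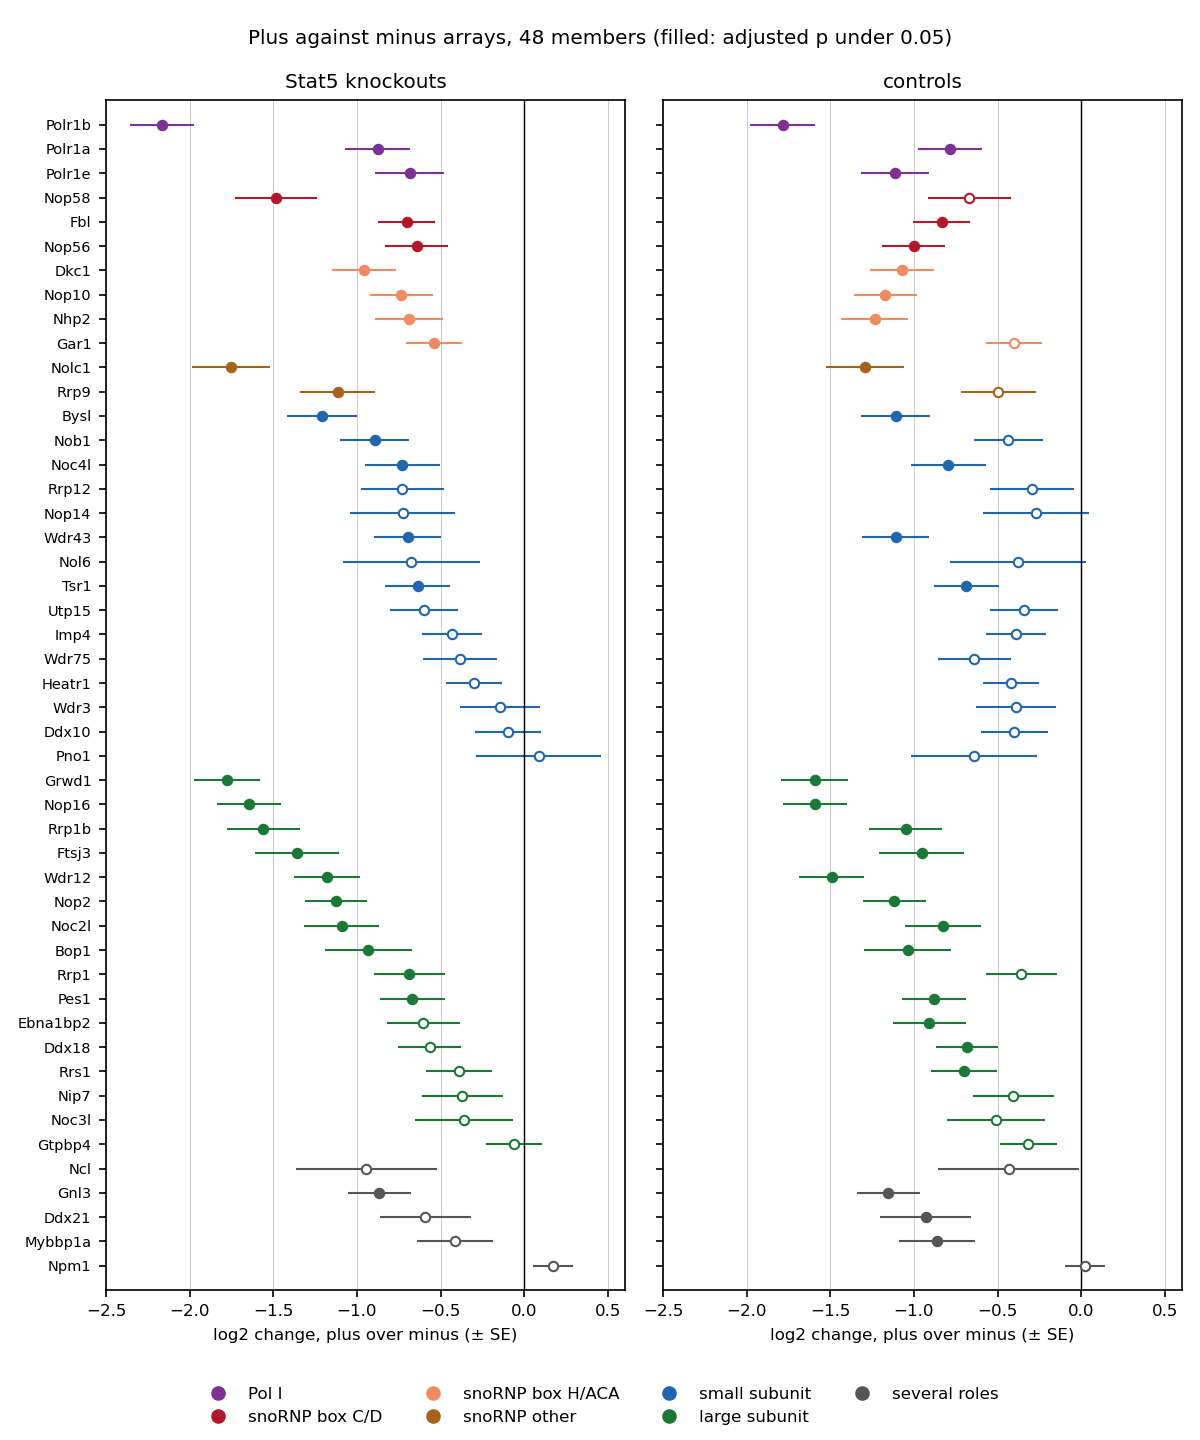
Log2 change of plus over minus arrays with its standard error (x axis) for the 48 members (y axis), grouped and coloured by role, in Stat5 knockouts (left) and controls (right); filled points have an adjusted p under 0.05. Filled points number 28 in each panel and all lie left of 0, and Polr1b is the farthest left in both.

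Promoter sequences are shown for 5 members, chosen so that each of the 3 motifs searched is seen in a gene described below. A table from RefSeq (assembly GRCm38.p6) gave windows of 250 bases before to 50 bases after the start for 43 members, in 47 windows. The 150 bases just before that table's start are printed 5′ to 3′ on the plus strand, with motif matches in capitals: CACGTG (the E box that MYC binds), CCGGAA or its reverse complement TTCCGG (a core bound by ETS factors), and TTCNNNGAA (the core that STAT factors bind).
Polr1b, chr2:129100846-129100995: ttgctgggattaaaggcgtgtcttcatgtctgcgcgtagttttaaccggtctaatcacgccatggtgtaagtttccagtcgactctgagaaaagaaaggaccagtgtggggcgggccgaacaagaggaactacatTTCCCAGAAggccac
Nop58, chr1:59684856-59685005: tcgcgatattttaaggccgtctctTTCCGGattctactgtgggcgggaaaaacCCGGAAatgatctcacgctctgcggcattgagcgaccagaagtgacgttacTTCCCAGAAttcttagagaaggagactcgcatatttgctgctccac
Nolc1, chr19:46075697-46075846: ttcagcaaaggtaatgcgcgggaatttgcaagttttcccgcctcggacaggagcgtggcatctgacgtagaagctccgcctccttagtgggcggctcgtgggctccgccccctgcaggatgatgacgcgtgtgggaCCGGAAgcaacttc
Nop2, chr6:125131733-125131882: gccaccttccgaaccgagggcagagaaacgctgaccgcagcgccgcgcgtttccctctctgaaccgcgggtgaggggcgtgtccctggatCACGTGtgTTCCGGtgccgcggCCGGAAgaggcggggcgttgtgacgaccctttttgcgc
Imp4, chr1:34439679-34439828: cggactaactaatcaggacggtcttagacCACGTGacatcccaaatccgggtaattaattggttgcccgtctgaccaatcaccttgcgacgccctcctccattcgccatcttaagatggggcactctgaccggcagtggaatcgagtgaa
The table's start was the first base of the gene for Nolc1, Nop2 and Imp4. For Polr1b and Nop58 it was another start, 26 and 45 bases inside the gene span given below, so that the TTCNNNGAA match of Polr1b lies within that span and that of Nop58 begins 1 base before it. Both strands were searched, and no match of one motif overlapped a match of another in these 5 stretches. CACGTG was found in 8 of the members' 47 windows (17%), against 7.15% of all 32851 windows. CCGGAA was found in 20 windows (42.6%), against 14.9% of all windows. TTCNNNGAA was found in 5 (10.6%), against 8.3% of all windows. The members' windows had a median GC content of 58.3%, against 52.7% in all windows. Of the 25 windows of members called lower in both genotypes, 5 held CACGTG (20%), 10 CCGGAA (40%) and 2 TTCNNNGAA (8%). Of the 12 windows of members called in neither, 2 held CACGTG (16.7%), 6 CCGGAA (50%) and 1 TTCNNNGAA (8.33%). A match describes the letters only, and nothing about binding was measured.

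All 3 subunits of RNA polymerase I on the list fell in plus arrays in both genotypes. The subunits Polr1c and Polr1d, which are not on the list, were called in neither and are given below. The knockout call of Polr1e was lost in 16 of the 27 alternatives described at the end. Polr1b (chr2:129100970-129128060) encodes the second-largest subunit, which forms part of the catalytic centre, and its signals were 310.1, 196 and 364 in the knockout plus arrays, against 1521, 1094 and 1565 in the knockout minus arrays. Gene positions here and below are those of RefSeq on GRCm38.p6. In controls the Polr1b signals were 442, 349 and 442 in the control plus arrays, against 1777, 1273 and 1456 in the control minus arrays. Every plus array lay far below every minus array, and the log2 change was -2.17 ± 0.19, adjusted p = 6.45e-05, in knockouts (± SE of the limma fit, n = 3 arrays per group) and -1.79 ± 0.19, adjusted p = 0.000172, in controls, 4.49-fold and 3.45-fold lower. Polr1a, which encodes the largest subunit, had signals of 624, 412 and 806 in the knockout plus arrays, against 1082, 993 and 1292 in the knockout minus arrays, and of 613, 442 and 718 in the control plus arrays, against 1032, 722 and 1432 in the control minus arrays. Its groups did not overlap in either genotype, with changes of -0.88 ± 0.19, adjusted p = 0.00974, and -0.79 ± 0.19, adjusted p = 0.0134. Polr1e, which encodes a subunit that helps initiation and elongation, had signals of 346, 683 and 293 in the knockout plus arrays, against 519, 1203 and 504 in the knockout minus arrays, and of 322, 474 and 202 in the control plus arrays, against 574, 1289 and 499 in the control minus arrays. In knockouts the arrays overlapped for Polr1e although the change, -0.69 ± 0.21, adjusted p = 0.0375, passed the threshold, and in controls they did not overlap (-1.11 ± 0.21, adjusted p = 0.00329).

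Box C/D core proteins bind the guide RNAs that direct ribose methylation. Nop58 (chr1:59684961-59711510), a scaffold protein of the complex whose promoter is printed above, had signals of 1146, 136 and 727 in the knockout plus arrays, against 2369.7, 551 and 2326 in the knockout minus arrays, and of 2150.1, 340.2 and 993 in the control plus arrays, against 2232, 604 and 2289 in the control minus arrays. In each set the plus array was lower, but the low signals of set B made the groups overlap. The change was -1.48 ± 0.25, adjusted p = 0.00233, in knockouts, past the threshold, and -0.67 ± 0.25, adjusted p = 0.0718, in controls, where it was not. Nop56, its partner in the complex, had signals of 1778, 3769 and 1461 in the knockout plus arrays, against 2223, 6037 and 2822 in the knockout minus arrays, and of 1792, 2822 and 1436 in the control plus arrays, against 3624, 6210.3 and 2659 in the control minus arrays. Its change was -0.64 ± 0.19, adjusted p = 0.0346, in knockouts, and in controls it had a 95% confidence interval of -1.41 to -0.59, adjusted p = 0.00368. Arrays overlapped across sets in both genotypes, with plus lower within each set. Fbl, fibrillarin, the methyltransferase of the complex, had signals of 3736, 3966 and 6918 in the knockout plus arrays, against 6241, 7472 and 9548 in the knockout minus arrays, and of 3525, 2936 and 6700.0 in the control plus arrays, against 5398, 7219 and 10212 in the control minus arrays. Its plus and minus arrays overlapped across sets in both genotypes, while within each set plus was lower, with changes of -0.70 ± 0.17, adjusted p = 0.0159, and -0.83 ± 0.17, adjusted p = 0.00557.

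Box H/ACA core proteins guide pseudouridylation, and the same proteins stabilise telomerase RNA. All 4 were called lower in knockouts and 3 of 4 in controls, where 9.72% and 11.6% of all genes were. Dkc1, dyskerin, the pseudouridine synthase, had signals of 6023, 3615 and 3933 in the knockout plus arrays, against 9100.3, 8308 and 8418 in the knockout minus arrays, and of 5389, 2991 and 5221 in the control plus arrays, against 9885, 9393 and 8507 in the control minus arrays. No plus array reached a minus array, and the change was -0.96 ± 0.19, adjusted p = 0.00648, in knockouts and -1.07 ± 0.19, adjusted p = 0.00291, in controls. Nhp2 (chr11:51619773-51623718) had signals of 3989, 6596 and 5264 in the knockout plus arrays, against 8041, 8261 and 8784 in the knockout minus arrays, and of 3390.4, 2559 and 4378 in the control plus arrays, against 7807, 7847 and 8239 in the control minus arrays. The groups were apart in both genotypes, with a change of -0.69 ± 0.20, adjusted p = 0.0347, in knockouts and -1.24 ± 0.20, adjusted p = 0.00179, in controls. Nop10, the smallest core protein, had signals of 6636, 11539 and 7661 in the knockout plus arrays, against 11429.7, 21100.0 and 11268 in the knockout minus arrays, and of 5677, 5884 and 6978 in the control plus arrays, against 11564, 16479 and 14151 in the control minus arrays. It fell in both genotypes, by 0.74 ± 0.19 in knockouts, where arrays overlapped, and by 1.17 ± 0.19 in controls, where they did not. Gar1 had signals of 3428, 2845 and 3937 in the knockout plus arrays, against 4929.9, 3934 and 6111 in the knockout minus arrays, and of 3425, 4252 and 4299 in the control plus arrays, against 4864, 5354 and 5601 in the control minus arrays. Its change was -0.54 ± 0.17, adjusted p = 0.0434, in knockouts, just past the threshold although arrays overlapped. In controls it was -0.40 ± 0.17, adjusted p = 0.104, and missed the threshold although the control arrays did not overlap.

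Among the other snoRNP factors, Nolc1 stood out by size. Nolc1 (chr19:46075847-46085543) encodes a phosphoprotein that chaperones snoRNPs between the nucleolus and Cajal bodies, and its signals were 811, 236 and 534 in the knockout plus arrays, against 2151, 1332 and 1623 in the knockout minus arrays, and 1056, 268 and 656 in the control plus arrays, against 2383, 779 and 1649 in the control minus arrays. The knockout groups did not overlap, while in controls the minus array of set B lay below the plus array of set A. The change was -1.76 ± 0.23, adjusted p = 0.000714, in knockouts and -1.29 ± 0.23, adjusted p = 0.003, in controls. Rrp9 encodes a protein of the snoRNP that directs the first cuts of the precursor, and its signals were 243, 25.5 and 206 in the knockout plus arrays, against 573, 109 and 418 in the knockout minus arrays, and 400.3, 46.0 and 286 in the control plus arrays, against 643, 63.5 and 435 in the control minus arrays. It was below the array median on 3 arrays of set B, and the change was -1.12 ± 0.22, adjusted p = 0.00649, in knockouts, past the threshold, and -0.50 ± 0.22, adjusted p = 0.133, in controls, where it was not. In all, 9 of 9 snoRNP proteins were called lower in knockouts and 6 of 9 in controls, where 9.72% and 11.6% of all genes were. The knockout calls of Nop56, Nhp2 and Gar1 were lost in 14, 15 and 16 of the 27 alternatives described at the end. Those of Nop10 and Fbl were lost in 9 and 8.

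**Figure D3:**
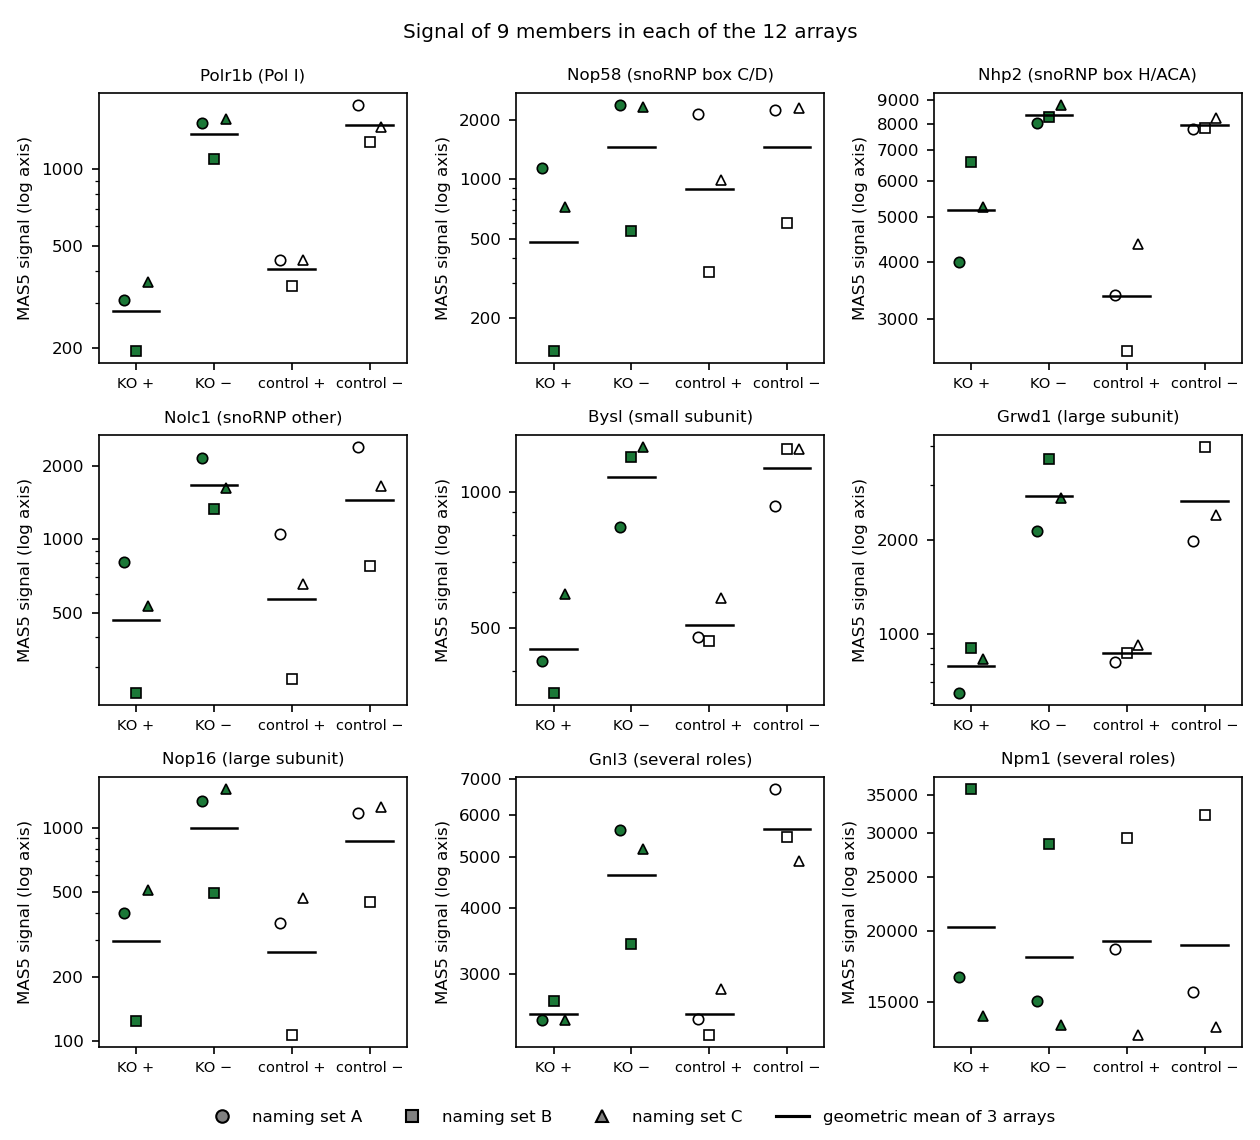
MAS5 signal on a log axis (y axis) of 9 members in each array (points, shaped by naming set), for knockout plus, knockout minus, control plus and control minus (x axis); horizontal lines are geometric means of 3 arrays. Plus arrays lie below minus arrays with no overlap in both genotypes for Polr1b, Nhp2, Bysl, Grwd1 and Gnl3, set B is low for Nop58, Nolc1 and Nop16, and Npm1 differs by set more than by group.

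Of 15 small subunit factors, 5 were called lower in knockouts and 4 in controls, where 9.72% and 11.6% of all genes were. Their median changes were -0.64 and -0.42. Bysl (chr17:47599331-47611492), bystin, which is needed for the late maturation of the small subunit, had signals of 421, 359 and 593 in the knockout plus arrays, against 834, 1192 and 1255 in the knockout minus arrays, and of 478, 466 and 579.9 in the control plus arrays, against 927, 1246 and 1241 in the control minus arrays. All plus arrays were below all minus arrays, with changes of -1.21 ± 0.21, adjusted p = 0.00297, and -1.11 ± 0.21, adjusted p = 0.00365. Wdr43, a WD-repeat protein of the early processing complex, had signals of 1625, 1923 and 1403 in the knockout plus arrays, against 2992, 2307 and 2768 in the knockout minus arrays, and of 1386, 1056 and 1631 in the control plus arrays, against 3336, 2698 and 2778 in the control minus arrays. Its arrays did not overlap, and the change was -0.70 ± 0.20, adjusted p = 0.0332, in knockouts and -1.11 ± 0.20, adjusted p = 0.00313, in controls. Nob1, the endonuclease that makes the final cut of the small subunit RNA, had signals of 1382, 561 and 1442 in the knockout plus arrays, against 2121, 1596 and 2232 in the knockout minus arrays, and of 1606, 897 and 1374 in the control plus arrays, against 1946, 1111 and 2315 in the control minus arrays. It fell in knockouts (-0.89 ± 0.21, adjusted p = 0.0124), where arrays did not overlap, and missed the threshold in controls (-0.44 ± 0.21, adjusted p = 0.148), where they did. Noc4l, the relative of a yeast factor for small subunit export, had signals of 2006, 2947 and 2489.8 in the knockout plus arrays, against 3164, 5482 and 3932 in the knockout minus arrays, and of 2610.0, 2268 and 2768 in the control plus arrays, against 4425, 6063 and 3230.0 in the control minus arrays. Its groups were apart in both genotypes, with changes of -0.73 ± 0.22, adjusted p = 0.0414, and -0.79 ± 0.22, adjusted p = 0.0259.

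Of the remaining small subunit factors 1 passed the test. Tsr1, a factor of late cytoplasmic maturation, fell by 0.64 ± 0.19 on the log2 scale in knockouts and by 0.69 ± 0.19 in controls, adjusted p = 0.041 and 0.0261. The other 10 were called in neither genotype: Nop14, Wdr3, Wdr75, Utp15, Heatr1, Imp4 and Nol6 of the early processing complex, the helicase Ddx10, the export factor Rrp12, and Pno1. Their changes ran from -0.73 (Rrp12) to 0.09 (Pno1) in knockouts and from -0.64 (Pno1) to -0.27 (Nop14) in controls. Imp4, whose promoter is printed above and whose protein belongs to the early processing complex, changed by -0.43 ± 0.18 in knockouts and -0.39 ± 0.18 in controls. Pno1, the partner of Nob1, had its lowest signal, 361, in the control plus array of set B, and its change, set by set, came to 0.08, 0.26 and -0.08 in knockouts and -0.47, -1.28 and -0.17 in controls.

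Of the 16 large subunit factors, the largest role group, 10 were called lower in knockouts and 12 in controls, where 9.72% and 11.6% of all genes were. Their median changes were -0.81 and -0.89. Grwd1 (chr7:45825223-45830994), a WD-repeat protein that escorts a ribosomal protein into the large subunit, had signals of 647, 899.8 and 829 in the knockout plus arrays, against 2133, 3637 and 2732 in the knockout minus arrays, and of 809, 868 and 918 in the control plus arrays, against 1981, 3976 and 2411 in the control minus arrays. The groups were well apart, with changes of -1.78 ± 0.20, adjusted p = 0.000269, and -1.59 ± 0.20, adjusted p = 0.000416, 3.43-fold and 3.02-fold lower. Nop16, a large subunit factor known as a MYC target, had signals of 399, 125 and 512 in the knockout plus arrays, against 1343, 495 and 1525 in the knockout minus arrays, and of 360.3, 108 and 469.8 in the control plus arrays, against 1179, 450.2 and 1259 in the control minus arrays. Within each set plus was lower, but the whole of set B was low, so that arrays overlapped across sets. The fitted change was -1.65 ± 0.19, adjusted p = 0.00032, in knockouts and -1.59 ± 0.19, adjusted p = 0.000315, in controls. Rrp1b, a relative of the yeast factor of large subunit RNA processing, had signals of 544, 664 and 561 in the knockout plus arrays, against 1694, 1948 and 1747 in the knockout minus arrays, and of 516, 953 and 914 in the control plus arrays, against 1767, 1661 and 1451 in the control minus arrays. Plus arrays lay below minus arrays without overlap, with changes of -1.56 ± 0.22, adjusted p = 0.000895, and -1.05 ± 0.22, adjusted p = 0.0061.

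Wdr12, Bop1 and Pes1 encode the 3 proteins of the PeBoW complex, which is needed to process the large subunit RNA, and all 3 fell in both genotypes. Wdr12 had signals of 1561, 576 and 874 in the knockout plus arrays, against 2673, 1507 and 2410.5 in the knockout minus arrays, and of 1344, 525 and 668 in the control plus arrays, against 3259, 1452 and 2420.3 in the control minus arrays. Arrays overlapped in knockouts and not in controls, with changes of -1.18 ± 0.20, adjusted p = 0.00241, and -1.49 ± 0.20, adjusted p = 0.000543. Bop1 had signals of 947, 566 and 790.2 in the knockout plus arrays, against 1483, 1552 and 1364 in the knockout minus arrays, and of 1134, 495 and 745 in the control plus arrays, against 1499, 1832 and 1417 in the control minus arrays. Its arrays did not overlap in either genotype, with changes of -0.93 ± 0.26, adjusted p = 0.028, and -1.04 ± 0.26, adjusted p = 0.015. Pes1, pescadillo, had signals of 1050.1, 795 and 1569.6 in the knockout plus arrays, against 1709, 1231 and 2586 in the knockout minus arrays, and of 1023, 481 and 1410.4 in the control plus arrays, against 1440.3, 1197 and 2648 in the control minus arrays. Its arrays overlapped in both genotypes while plus was lower in every set, with changes of -0.67 ± 0.19, adjusted p = 0.0323, and -0.88 ± 0.19, adjusted p = 0.00785.

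Further large subunit factors with catalytic or transport roles also fell in both genotypes. Nop2, an RNA cytosine methyltransferase whose promoter holds CACGTG and CCGGAA, had signals of 511, 621 and 409 in the knockout plus arrays, against 985, 1463 and 1038 in the knockout minus arrays, and of 568, 761 and 489 in the control plus arrays, against 1079, 1873 and 1164 in the control minus arrays. Its groups were apart, with changes of -1.13 ± 0.19, adjusted p = 0.0023, and -1.12 ± 0.19, adjusted p = 0.00196. Ftsj3, an RNA methyltransferase, changed by -1.36 ± 0.25, adjusted p = 0.00436, in knockouts and by -0.95 ± 0.25, adjusted p = 0.0199, in controls, and it was below the array median on 2 arrays. Noc2l, a relative of a yeast factor for export of the large subunit, changed by -1.09 ± 0.22, adjusted p = 0.00734, and -0.83 ± 0.22, adjusted p = 0.0221, with no overlap of arrays in either genotype. Rrp1, the paralog of Rrp1b, was called in knockouts alone (-0.69 ± 0.21), and the assembly factor Ebna1bp2, the helicase Ddx18 and the assembly factor Rrs1 in controls alone (-0.91 ± 0.22, -0.68 ± 0.19 and -0.70 ± 0.20). The assembly factors Nip7 and Noc3l and the GTPase Gtpbp4 were called in neither, with changes of -0.37 ± 0.24, -0.36 ± 0.29 and -0.06 ± 0.17 in knockouts and -0.41 ± 0.24, -0.51 ± 0.29 and -0.32 ± 0.17 in controls.

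The 5 nucleolar proteins with several roles did not move alike. Gnl3 (chr14:31012433-31019131), nucleostemin, a GTPase of proliferating and stem cells, had signals of 2451, 2671 and 2456 in the knockout plus arrays, against 5605, 3419 and 5160.4 in the knockout minus arrays, and of 2469, 2304 and 2813 in the control plus arrays, against 6709.9, 5451 and 4908 in the control minus arrays. Plus arrays were below minus arrays in both genotypes, with changes of -0.87 ± 0.19, adjusted p = 0.0101, and -1.15 ± 0.19, adjusted p = 0.00189. Ddx21, a helicase that links RNA polymerase I with processing, had signals of 1397, 2306 and 953 in the knockout plus arrays, against 2831, 1941 and 1959 in the knockout minus arrays, and of 1395, 886 and 1168 in the control plus arrays, against 2433, 2374 and 1795 in the control minus arrays. In knockouts the arrays overlapped and the change was -0.59 ± 0.27, adjusted p = 0.149, and in controls they did not and it was -0.93 ± 0.27, adjusted p = 0.0306. Mybbp1a, a nucleolar regulator of ribosomal RNA synthesis, was called lower in controls (-0.86 ± 0.23, adjusted p = 0.0192) and not in knockouts (-0.41 ± 0.23, adjusted p = 0.225).

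Nucleolin and nucleophosmin, which are abundant nucleolar proteins, did not pass the test. Ncl, nucleolin, had signals of 9010.3, 1083 and 9576 in the knockout plus arrays, against 10562, 5867 and 10984 in the knockout minus arrays, and of 8643, 4688 and 9571 in the control plus arrays, against 10105, 8517 and 11164 in the control minus arrays. Set B was low for this probe set in every group, with a signal of 1083 in its knockout plus array, and the change was -0.94 ± 0.42, adjusted p = 0.14, in knockouts and -0.43 ± 0.42, adjusted p = 0.496, in controls. Of 4 other Ncl probe sets, 1 was called lower in both genotypes (-1.01 ± 0.25 in knockouts and -0.89 ± 0.25 in controls). Npm1, nucleophosmin, had signals of 16601, 35880.1 and 14136 in the knockout plus arrays, against 15063, 28592 and 13596 in the knockout minus arrays, and of 18626, 29301 and 13098 in the control plus arrays, against 15596, 32231 and 13494 in the control minus arrays. The groups overlapped in full and set B was the highest throughout, with a change of 0.17 ± 0.12, adjusted p = 0.332, in knockouts and 0.03 ± 0.12, adjusted p = 0.903, in controls. The other Npm1 probe set changed by -0.35 ± 0.17 in knockouts and -0.42 ± 0.17 in controls, and was not called either.

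The level of the members differed by set within each group as well. The median deviation of the 48 members from their own mean log2 value was -0.32, -0.56 and -0.38 in knockout plus arrays, against 0.45, 0.20 and 0.43 in knockout minus arrays. It was -0.24, -0.67 and -0.23 in control plus arrays, against 0.44, 0.26 and 0.45 in control minus arrays. Every plus array was below 0 and every minus array above it, and set B was the lowest in each group. All 48 members were above the filter, and 44 were above the median signal of the array on all 12 arrays, against 81.4% of all genes tested, the exceptions being Nop16, Rrp9, Ftsj3 and Nol6.

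**Figure D4:**
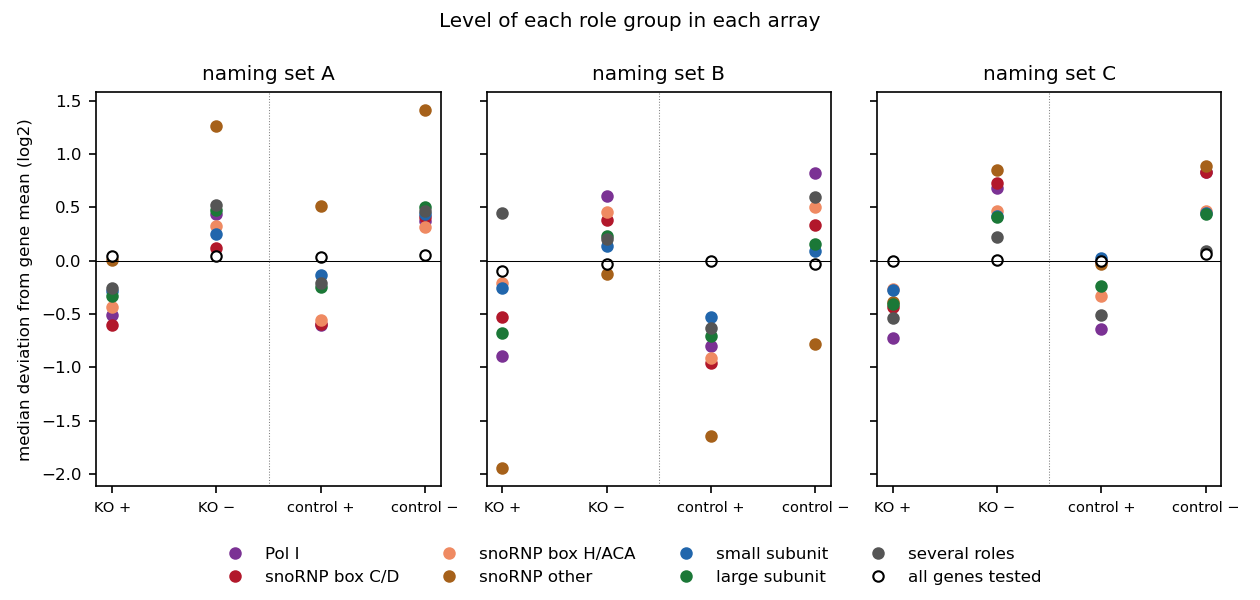
Median deviation of each role group's genes from their own mean log2(signal + 32) (y axis) in knockout plus, knockout minus, control plus and control minus arrays (x axis), with 1 panel per naming set and open circles for all genes tested. Within a set and genotype every role group is lower in the plus than in the minus array, except the group with several roles in the knockouts of set B, and open circles stay near 0.

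Other probe sets of the members were tested on their own, an alternative added after the values were seen. There were 54 of them for 36 genes, 48 above the filter. Called lower were 23 in knockouts and 19 in controls, with 0 higher, where 6.57% and 8% of all probe sets were called lower.

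Genes of the pathway outside the list were counted in the same way. Their lists, too, were chosen with earlier results of these data known, so the counts are not an independent test. Of 113 tested genes from lists of further factors, 30 were lower in knockouts (26.5%) and 28 in controls (24.8%), where 9.72% and 11.6% of all genes were, with 0 higher and medians of -0.39 and -0.43. Among 9 other snoRNP factors 5 were lower in each genotype, among them the assembly ATPase Ruvbl2 (-1.02 ± 0.23 in knockouts and -1.13 ± 0.23 in controls) and the box C/D assembly factor Znhit6 (-0.80 ± 0.26 and -1.25 ± 0.26). Of 38 other small subunit factors 12 were lower in knockouts and 10 in controls, including Tbl3 (-1.18 ± 0.22 and -0.75 ± 0.22) and Utp4 (-0.99 ± 0.19 and -0.85 ± 0.19). Of 44 other large subunit factors 9 were lower in each genotype, and Ppan, a relative of a yeast large subunit factor, changed by -2.37 ± 0.34 in knockouts and -1.47 ± 0.34 in controls. Nifk and Pa2g4 were lower as well, by 1.27 ± 0.18 and 0.99 ± 0.17 in knockouts and by 1.18 ± 0.18 and 1.18 ± 0.17 in controls. Of 13 genes of the RNA exosome, which trims the precursor, 4 were lower in each genotype, including Exosc7 (-0.99 ± 0.19 and -1.23 ± 0.19) and Exosc5 (-1.80 ± 0.37 and -1.32 ± 0.37).

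Some neighbouring gene lists were counted too. Of 9 further genes of RNA polymerase I transcription, 0 were called by limma in either genotype. At an unadjusted p under 0.05 there were 2 in knockouts and 1 in controls, where 33.9% and 36.4% of all genes passed. The subunit Polr1c changed by 0.07 ± 0.14 and 0.01 ± 0.14 in knockouts and controls. The subunit Polr1d changed by -0.09 ± 0.155 and -0.20 ± 0.155. Ubtf, which loads the polymerase on ribosomal DNA, changed by -0.76 ± 0.34 and -0.20 ± 0.34, and Rrn3, which recruits it, by -0.48 ± 0.22 and 0.02 ± 0.22. Of 44 cytosolic ribosomal protein genes 1 was lower in knockouts (2.27%) and 3 in controls (6.82%), below the 9.72% and 11.6% of all genes, with medians of -0.08 and 0.06. Of 76 mitochondrial ribosomal protein genes 10 were lower in knockouts (13.2%) and 14 in controls (18.4%), above those shares, with medians of -0.37 and -0.43.

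Myc, the activator named above, was lower in plus arrays too. Its signals were 1681, 751 and 1320 in the knockout plus arrays, against 4139, 3819 and 4207 in the knockout minus arrays, and 1917, 754 and 1635 in the control plus arrays, against 4018, 3663 and 3286 in the control minus arrays. No plus array reached a minus array, and the change was -1.74 ± 0.25 in knockouts and -1.43 ± 0.25 in controls. Of the other 9 Max-network genes tested, limma called 0 in knockouts, with 1, Mxd1, at an unadjusted p under 0.05, and Mxd1, Mxd4 and Mycn were higher in controls, by 1.37, 0.95 and 1.10 on the log2 scale.

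Knockouts were then compared with controls within the plus and within the minus arrays. At an adjusted p under 0.05, limma called 0 of 48 members in plus arrays and 0 in minus arrays, where 0.0189% of all genes, Stat5a and Stat5b, were called in each. At an unadjusted p under 0.05 there were 6 members in plus arrays, where 9.81% of all genes passed, and 0 in minus arrays, where 2.36% did. The 6 were Nop58, Polr1b, Nol6 and Rrp9, lower in knockouts, and Nhp2 and Nop10, higher. Nop58 changed by -0.82 ± 0.25 in plus arrays, Nhp2 by 0.62 ± 0.20 and Polr1b by -0.49 ± 0.19. The knockout plus signals of Polr1b, given above, ran from 196 to 364 and the control plus signals from 349 to 442, so that the groups overlapped. In minus arrays the smallest unadjusted p was that of Nol6 (-0.67 ± 0.41), a protein of the early small subunit complex.

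Over all members the 95% confidence intervals of the knockout effect reached from -1.86 to 1.59 in plus arrays and from -1.56 to 0.91 in minus arrays, so changes of up to that size were compatible with the data for single members. The narrowest interval was that of Npm1, -0.18 to 0.34 in plus arrays and -0.33 to 0.19 in minus arrays. Heatr1, a factor of early small subunit processing, was the only member whose knockout and control arrays did not overlap, lower in knockout minus arrays, where 2.85% of all genes were lower without overlap. In plus arrays no member was separated in this way, where 3.04% of all genes were lower without overlap.

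**Figure D5:**
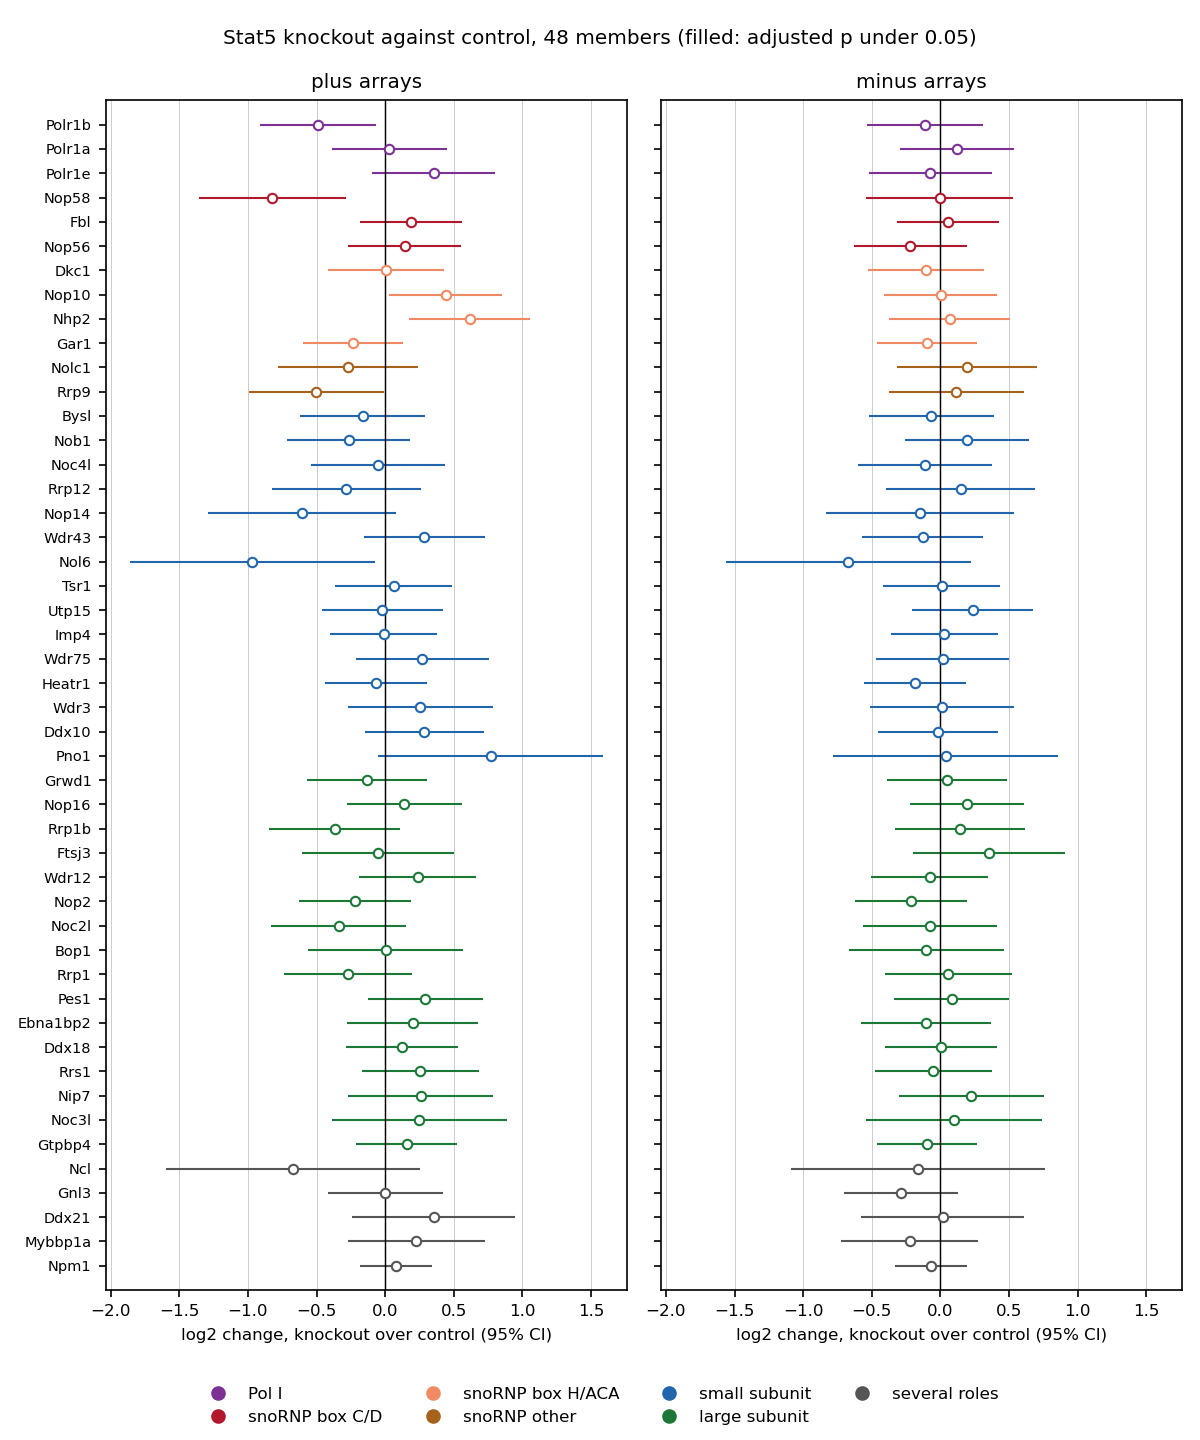
Log2 change of Stat5 knockout over control arrays with its 95% confidence interval (x axis) for the 48 members (y axis), coloured by role, in plus arrays (left) and minus arrays (right); a filled point would have an adjusted p under 0.05. No point is filled, and the intervals of Nop58, Polr1b, Nol6, Rrp9, Nhp2 and Nop10 in the left panel leave out 0.

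Whether the plus against minus change differed between the genotypes was tested as an interaction. At an adjusted p under 0.05, limma called 0 of 48 members and 0% of all genes. At an unadjusted p under 0.05 there was 1 member, Nop58, where 2.11% of all genes passed. The difference, the change in knockouts minus that in controls, was -0.82 ± 0.35 for Nop58, with a 95% interval of -1.58 to -0.06 and an adjusted p of 0.954. Rrp9 followed with -0.62 ± 0.32 and Nhp2 with 0.55 ± 0.29. The intervals of the 48 interactions together reached from -1.82 to 1.89. A difference between genotypes in the members' fall was therefore not detectable with 3 arrays per group, and the intervals do not show that the genotypes responded alike.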

How the data were processed

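The members and the gene lists were chosen with earlier results of these data known. The deposited table holds a linear intensity, the MAS5 signal, for each probe set. MAS5 is named in the submitters' processing notes, with no version. Every array had a trimmed mean of 500 (2% trimmed at each end), and this scaling was kept. Signals were taken as log2(signal + 32), so fold changes of dim genes are understated. One limma fit (limma 3.58.1, R 4.3.3, eBayes with a trend) held the 4 groups and the naming set as a block, with 6 residual and 5.78 prior degrees of freedom. The 5 contrasts were tested two-sided and p-values adjusted over all 10583 genes (Benjamini-Hochberg). Genes at an adjusted p under 0.05 are called lower or higher. The sets pair the arrays: deviations from group means correlated at 0.41 to 0.77 in 18 pairs of the same set, and at -0.64 to 0.28 in 36 pairs from different sets and groups. No detection calls were used, and precision is limited by the number of arrays. Full values are given for up to 4 members per role group with the smallest p, and for members a result turns on. Probe sets with several symbols (932) or not listed (9211 of 45101) were left out. The test was tried on simulated data. Alternatives changed the offset, filter, scaling, probe set rule, block, arrays used and covariate.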

Additional observations from a re-analysis of the deposited data

How the results depend on the processing

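In both plus against minus comparisons 0 members were called higher in the alternatives run. Of the 28 members called in knockouts, 3 (Polr1b, Grwd1 and Rrp1b) kept their call in all 27 alternatives, and of the 28 in controls 4 did (Polr1b, Grwd1, Gnl3 and Nhp2). In knockouts 10 calls were lost in more than 10 of the 27 alternatives, the most being 18, and in controls 0 were. These 10 were Polr1e, Nop56, Nhp2, Gar1, Wdr43, Noc4l, Tsr1, Bop1, Pes1 and Rrp1. The count in knockouts was 4 with no replicate block, 14 with the knockout minus array of set B as a control, 10 with the beta-actin covariate and 13 with only the arrays of the comparison in the fit. The count in controls was 7 with no replicate block. The median in knockouts was -0.79 for the mean of all probe sets and -0.87 with the covariate, and in controls -0.99 with arrays centred on their medians, where the median of all genes was -0.22 and 17.9% of them were called lower. Leaving out single arrays gave 15 to 30 calls in knockouts and 19 to 32 in controls, with medians of -0.73 to -0.66 and of -0.90 to -0.65. Leaving out a whole set gave 6 (without C) to 31 calls in knockouts and 10 (without C) to 31 in controls, with medians of -0.74 to -0.64 and of -0.87 to -0.62, and without set A the counts were 10 and 17. In knockouts the count was also under 19 without the plus array of set A (18) and without the minus arrays of sets A (17), B (15) and C (17). Counts in the genotype contrasts and the interaction were 0 in all alternatives. The cause of these moves was not tested.

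Values with the opposite sign arose only for members called in neither the original nor the alternative fit. In knockouts they were -0.087 for Npm1 (mean of all probe sets) and -0.095 (array weights) and -0.75 (covariate) for Pno1. In controls with the covariate they were 0.21 for Ncl, 0.11 for Rrp1, 0.22 for Rrp12, 0.23 for Nol6 and -0.11 for Npm1, and Npm1 was also -0.17 (arrays centred), -0.031 (quantile normalization), -0.20 (mean of all probe sets) and -0.0032 (array weights). Without single arrays, knockout changes ran from -0.44 to 0.027 for Wdr3, -0.33 to 0.053 for Ddx10, -0.21 to 0.041 for Gtpbp4 and -0.32 to 0.38 for Pno1, and control changes from -0.66 to 0.0029 for Ncl and -0.089 to 0.098 for Npm1. Without a whole set they ran up to 0.049 (A) and 0.056 (C) for Wdr3, 0.089 (A) for Ddx10 and 0.056 (C) for Gtpbp4 in knockouts, and down to -0.090 (A) for Npm1 in controls.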
